A study of Mus musculus with 6 samples.

Results

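Glycolysis and hypoxia response genes were followed in CT26 tumors as 36 named transcripts out of the 23122 genes in the count table. Members were chosen by name, as glycolytic genes and as genes known to be induced by hypoxia-inducible factors (HIFs). Measured values were not the rule of choice, but earlier results of these data were known when the choice was made. A row with the listed symbol was found for 35 of them, and Ero1l was found as Ero1a, its current symbol, through a synonym in RefSeq. They form 2 subsets of 18, one of glucose and lactate transporters and glycolytic enzymes (Slc2a1 to Slc16a3) and one of HIF-induced genes (Pdk1 to Ero1a). All 36 passed the filter on low counts.

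CT26, a colorectal carcinoma line from the BALB/c strain, was injected under the skin of female BALB/c mice (6 to 8 weeks of age) at 500000 cells per animal. At a volume of 100 to 200 mm3 the animals were randomized to vehicle or to TP-18, named in the series title as a dual antagonist of the prostaglandin E2 receptors EP2 and EP4. TP-18 was given by mouth at 50 mg/kg once a day, treatment lasted 3 weeks in both groups, and 3 tumors per group were sequenced. Both groups carry tumors of 1 cell line in hosts with an intact immune system, and nothing in the labels ties the samples to separate animals, so p-values measure only the spread between these samples, which may be technical. Libraries held 34813482 to 36489081 counts. Of 10 genes listed as epithelial or CT26 markers, Krt20 stood at 184 to 342 CPM (counts scaled to library size) and Epcam, a defining epithelial gene, at 0 to 0.615 CPM. The 10 summed to 693 to 763 CPM in vehicle and 628 to 729 CPM in TP-18 tumors. Only 4 of them could be tested, with 2 positive and 2 negative changes. By the edgeR test described below, 1 was called lower and 0 higher, beside 5.26% and 7.09% of all genes. In whole tumors, fewer cells of a type and less RNA per cell cannot be told apart.

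Glycolysis splits glucose into pyruvate in the cytosol, and lactate dehydrogenase then turns pyruvate into lactate, which leaves the cell through monocarboxylate transporters. When oxygen is short, the prolyl hydroxylases of the EGLN family no longer mark HIF-alpha subunits for destruction. HIF-alpha then pairs with ARNT, binds short DNA elements with the core letters ACGTG or GCGTG, and raises transcription of most glycolytic genes together with genes for blood vessel growth, pH control, collagen modification and mitochondrial turnover. Solid tumors are known both for high glycolysis and for poorly perfused regions.

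The comparison asks whether these transcripts differed between tumors of treated and control mice. Adm, which encodes the vasodilator peptide adrenomedullin, was the 1 member of 36 that passed the test, and it was lower in TP-18 tumors (edgeR's quasi-likelihood test, Benjamini-Hochberg adjusted p under 0.05 over 14189 genes). No member was called higher. At an unadjusted p under 0.05 there were 2 higher and 5 lower of 36, where 29.9% of all tested genes passed (2175 higher and 2073 lower). Across all tested genes 5.26% were called lower and 7.09% higher, so calls among the members were no more frequent than among all genes. The log2 change (TP-18 minus vehicle) was negative in 30 members and positive in 6, with a median of -0.40 over the members and -0.01 over all tested genes. DESeq2 called 5 members lower (Gpi1, Eno1, Vegfa, Mxi1 and Adm) and 2 higher (Pfkm and Pfkfb4), beside 7.55% and 9.13% of all genes, and limma-voom called none, beside 5.10% of all genes lower and 7.25% higher.

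The vehicle tumors differed widely from each other. Vehicle 3 had the highest level of the 3 vehicle tumors in 36 of 36 members, as it had in 34.8% of all tested genes, and vehicle 1 had the lowest in 34, as in 36.7% of all. From vehicle 1 to vehicle 3 the level differed by a median factor of 1.96 over the members and 1 (0.998) over all genes. The factor was at least 1.5 in 31 members (86.1%) and in 12.4% of all genes. Pooled over the members, 1.42%, 1.89% and 2.54% of the counts of vehicle 1, 2 and 3 came from these 36 genes, against 1.65%, 1.70% and 1.38% in TP-18 1, 2 and 3. The TP-18 mean lay between vehicle 1 and vehicle 2 in 21 of 36 members, as in 1879 of all 14189 genes, and below vehicle 1 in 8, as in 7035 of all. In 31 members all 3 TP-18 tumors were below vehicle 3, as in 36.5% of all genes. TP-18 3 had the lowest level of the TP-18 tumors in 27 members (29.9% of all genes), and TP-18 2 the highest in 26.

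**Figure D1:**
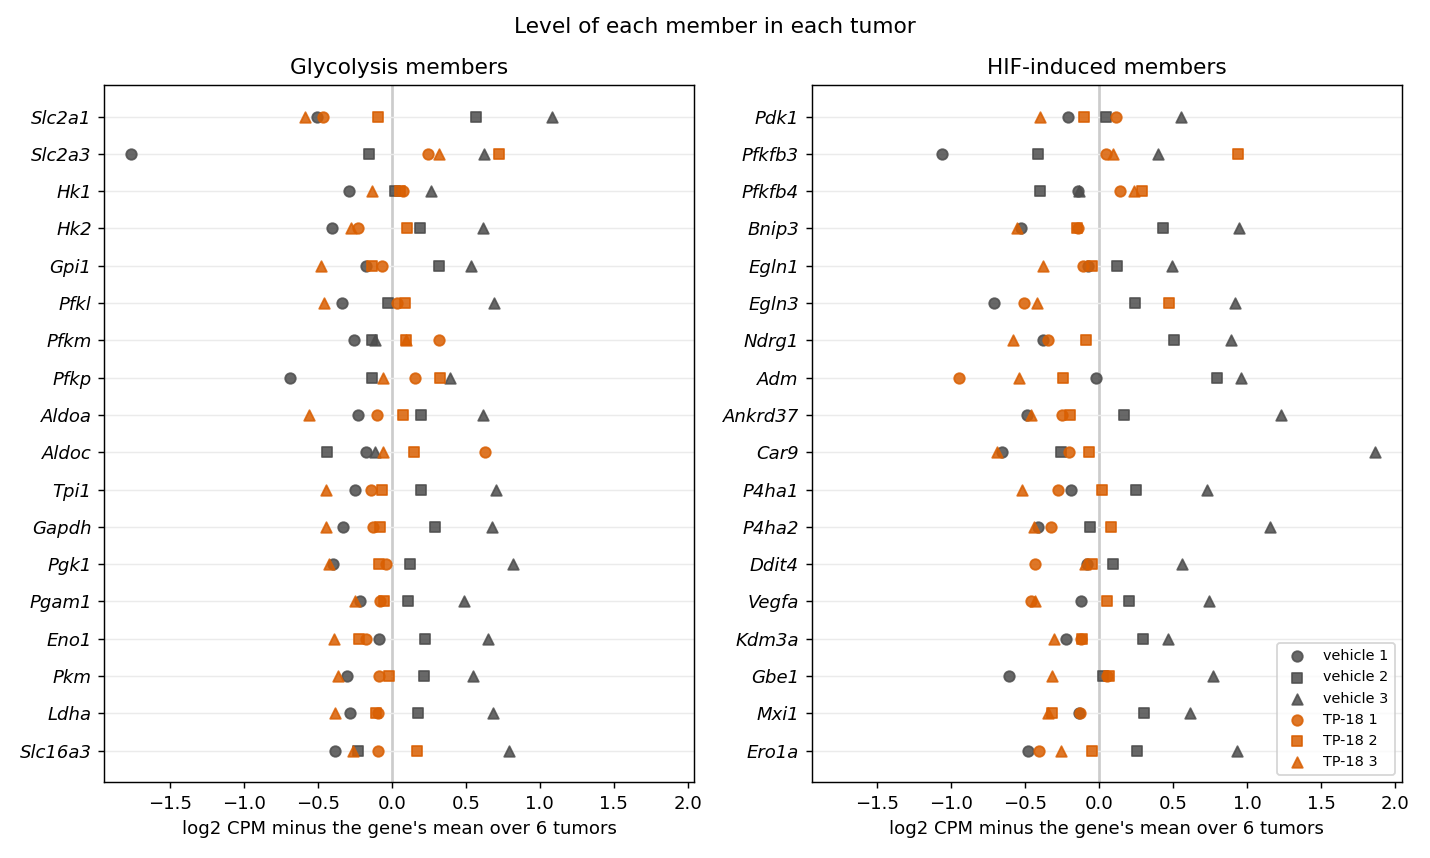
Each point is 1 tumor, placed by its log2 CPM minus the mean of the gene over the 6 tumors (grey for vehicle, orange for TP-18, with 1 symbol per replicate number). Vehicle 3 is the rightmost vehicle tumor for all 36 members, while all 3 TP-18 tumors lie to its left for 31 of them.

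The spread within the groups was unequal. The standard deviation (SD) of log2 CPM was larger among vehicle than among TP-18 tumors in 34 of 36 members, all but Pfkm and Aldoc, and in 65.6% of all tested genes. Its median over the members was 0.50 among vehicle and 0.21 among TP-18 tumors, against 0.18 and 0.13 over all genes. Car9 had the widest spread, with an SD of 1.35 among vehicle and 0.33 among TP-18 tumors, and Slc2a3 followed with 1.20 and 0.26.

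**Figure D2:**
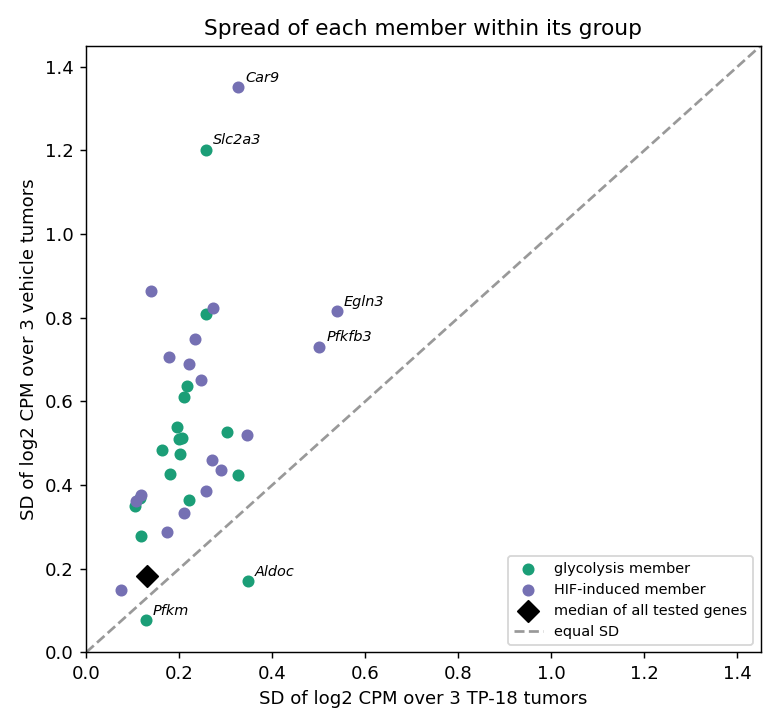
Each point is 1 member, with the SD of its log2 CPM over the 3 TP-18 tumors on the x axis and over the 3 vehicle tumors on the y axis. The diamond gives the medians of all tested genes (0.13 and 0.18), the dashed line equal SDs, and 34 of 36 members lie above that line.

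Because the members move together from tumor to tumor, the promoters of a few are shown here, 2 of glycolysis genes with several core motifs, 1 of the main glucose transporter, and those of Bnip3, Car9 and Adm, whose values are given further on. RefSeq windows (GRCm38.p6, 250 bases before to 50 bases after an annotated start) were found for 34 members, with 52 windows in all. Slc2a3 and Ndrg1 had none. Capitals mark the core letters ACGTG or GCGTG, searched on both strands, so that CACGT and CACGC are the same cores read from the other strand. Windows are chr4:119108495-119108794 (plus strand) for Slc2a1, chrX:106186850-106187149 (plus) for Pgk1, chr7:46845554-46845853 (plus) for Ldha, chr7:138909457-138909756 (minus) for Bnip3, chr4:43506776-43507075 (plus) for Car9 and chr7:110627407-110627706 (plus) for Adm, each printed 5′ to 3′ in the direction of transcription.
Slc2a1: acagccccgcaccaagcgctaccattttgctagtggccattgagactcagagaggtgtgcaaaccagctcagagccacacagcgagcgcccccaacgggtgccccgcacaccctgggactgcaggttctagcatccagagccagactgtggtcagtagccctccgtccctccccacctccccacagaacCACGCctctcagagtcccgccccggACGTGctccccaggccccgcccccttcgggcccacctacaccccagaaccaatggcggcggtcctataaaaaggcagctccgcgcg
Pgk1: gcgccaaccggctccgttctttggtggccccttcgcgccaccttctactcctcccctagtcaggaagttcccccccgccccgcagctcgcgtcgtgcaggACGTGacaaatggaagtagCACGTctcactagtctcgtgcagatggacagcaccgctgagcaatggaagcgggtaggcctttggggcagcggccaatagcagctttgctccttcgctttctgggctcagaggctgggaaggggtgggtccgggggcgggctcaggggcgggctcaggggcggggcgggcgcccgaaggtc
Ldha: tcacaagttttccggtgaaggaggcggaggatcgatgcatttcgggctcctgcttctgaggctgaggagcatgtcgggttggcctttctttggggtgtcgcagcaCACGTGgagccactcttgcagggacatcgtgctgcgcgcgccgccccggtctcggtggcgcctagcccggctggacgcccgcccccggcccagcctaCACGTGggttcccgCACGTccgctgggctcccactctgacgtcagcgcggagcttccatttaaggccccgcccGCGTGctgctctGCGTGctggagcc
Bnip3: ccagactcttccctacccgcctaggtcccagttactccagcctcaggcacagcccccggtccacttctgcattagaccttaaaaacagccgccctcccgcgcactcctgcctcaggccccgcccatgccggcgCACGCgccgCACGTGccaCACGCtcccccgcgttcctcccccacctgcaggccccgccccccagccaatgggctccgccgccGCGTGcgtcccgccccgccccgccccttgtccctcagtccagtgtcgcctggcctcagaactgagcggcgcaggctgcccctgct
Car9: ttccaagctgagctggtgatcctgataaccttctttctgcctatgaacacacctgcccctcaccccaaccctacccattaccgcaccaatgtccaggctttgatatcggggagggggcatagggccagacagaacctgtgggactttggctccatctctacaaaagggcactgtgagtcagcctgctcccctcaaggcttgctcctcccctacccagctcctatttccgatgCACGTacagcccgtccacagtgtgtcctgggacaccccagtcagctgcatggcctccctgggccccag
Adm: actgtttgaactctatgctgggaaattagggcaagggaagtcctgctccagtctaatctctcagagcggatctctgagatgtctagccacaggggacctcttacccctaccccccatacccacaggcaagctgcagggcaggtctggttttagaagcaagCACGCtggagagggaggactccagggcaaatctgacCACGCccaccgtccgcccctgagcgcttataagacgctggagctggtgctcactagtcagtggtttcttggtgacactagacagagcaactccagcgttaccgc

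ACGTG was found in 28 of the 52 member windows (53.8%) and in 19.6% of all 32851 promoter windows. The share was 50% in the 28 windows of the glycolysis subset and 58.3% in the 24 windows of the HIF-induced subset. GCGTG was in 53.8% of member windows and 32.4% of all, and either core in 76.9% and 43.8%. Member windows had a median GC content of 62.2% against 52.7% for all windows, and the part of base composition in these shares was not tested. Windows of 1 gene can overlap and share a match. In Pgk1 the first bases of the ACGTG matches lie 150 and 131 bases before the start, in Slc2a1 36 and in Car9 18 bases before it. Slc2a1 also has GCGTG 61 bases before the start. The Ldha window shown has 5 matches of ACGTG, of which 4 are the 2 strands of 2 copies of the palindrome CACGTG. This palindrome is also the E-box letters read by MYC and its partners. Bnip3 has 1 such palindrome, counted as 2 matches. Adm had no ACGTG and 2 copies of GCGTG. A match is a run of letters and not a measured binding site.

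Glucose enters cells through the GLUT transporters. Slc2a1 encodes GLUT1, the widely expressed basal transporter, and measured 227, 476 and 679 CPM in vehicle 1, 2 and 3 and 233, 302 and 214 CPM in TP-18 1, 2 and 3. All TP-18 tumors were thus close to vehicle 1 and below the other vehicle tumors, and the groups overlapped. The log2 change was -0.88 ± 0.41 (SE, n = 3 per group) with an adjusted p of 0.215. Slc2a3, the high-affinity transporter GLUT3 of neurons and leukocytes, had 2.48, 7.53 and 12.9 CPM in vehicle and 9.95, 13.9 and 10.5 CPM in TP-18 tumors. Its change was 0.58 ± 0.55, and vehicle 1 alone stood apart, at a level below all other tumors. GLUT1 accounted for 97.8% to 99.5% of the summed FPKM (fragments scaled by gene length and library size) of the pair.

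Hexokinases trap glucose in the cell as glucose-6-phosphate. Hk1, the housekeeping form, measured 132, 164 and 194 CPM in vehicle and 170, 168 and 147 CPM in TP-18 tumors, a change of -0.02 ± 0.14 that took the opposite sign under several settings. Hk2, the HIF-induced form, measured 77, 116 and 156 CPM in vehicle and 86.8, 109 and 84.3 CPM in TP-18 tumors (-0.32 ± 0.26, adjusted p = 0.460). Hk3, the hexokinase of myeloid cells and no member, had 12, 13.6 and 26.3 CPM in vehicle and 47, 84.4 and 43.4 CPM in TP-18 tumors, with no overlap and an adjusted p of 0.0507. Within the hexokinase family the share of Hk2 in the summed FPKM was 31.5%, 36.1% and 37.4% in vehicle and 24.3%, 24.8% and 26.1% in TP-18 tumors. Conversely, Hk3 took 7.29% to 10.9% in vehicle and 22.8% to 33.1% in TP-18 tumors. Macrophage markers are a list of 12 genes with 10 positive and 2 negative changes and 4 called higher, beside 7.09% of all genes (edgeR). They summed to 1517 to 2182 CPM in vehicle and 2667 to 3395 CPM in TP-18 tumors. Lyz2 was the most abundant of them, with 859, 648 and 809 CPM in vehicle and 1109, 1733 and 1248 CPM in TP-18 tumors. Cd163 went the other way, with 12.8, 18.7 and 85.2 CPM in vehicle and 9.41, 6.21 and 7.92 CPM in TP-18 tumors (adjusted p = 0.131 by edgeR). The part of these cells in the Hk3 share was not tested.

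Phosphofructokinase-1 commits sugar to glycolysis and is built from liver (Pfkl), muscle (Pfkm) and platelet (Pfkp) subunits. Pfkm had 32.1, 35 and 35.4 CPM in vehicle and 47.7, 40.9 and 41 CPM in TP-18 tumors, every TP-18 tumor above every vehicle tumor. Its change of 0.34 ± 0.09 had an adjusted p of 0.0528 in edgeR. It passed with upper-quartile scaling (0.0444), with a filter of 1 CPM (0.0456), in DESeq2 (0.0441) and in limma on log2 FPKM (0.0199 to 0.0408). It did not pass with RLE scaling (0.0551), without a filter (0.0677), with a replicate block (0.113) or in limma-voom (0.0576). Leaving out each tumor in turn gave adjusted p-values of 0.0727 to 0.173 (edgeR), none of which passed. Across all genes 18% had groups that did not overlap with TP-18 higher, and 3 members (Pfkm, Aldoc and Pfkfb4) did. Of 22 skeletal muscle markers 20 were tested and 10 called higher, beside 7.09% of all genes (edgeR). These markers summed to 18.1 to 49.8 CPM in vehicle and 88.4 to 175 CPM in TP-18 tumors, and their part in Pfkm was not tested. Pfkl measured 145, 180 and 296 CPM in vehicle and 187, 195 and 133 CPM in TP-18 tumors, and Pfkp 38, 55.7 and 80.3 against 68.1, 76.8 and 58.6 CPM. In the family the share of Pfkl was 65.7% to 71.7% of the FPKM in vehicle and 56.1% to 61.8% in TP-18 tumors, so that the groups did not overlap.

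Isoform shares were compared for 27 genes in 11 families by an exact two-sided permutation test, in which 3 against 3 tumors cannot give a p below 0.1. For 11 shares, among them those of Hk2, Hk3, Pfkl, Pfkp and Egln1, the groups did not overlap and p was 0.1, and after Benjamini-Hochberg adjustment over the 27 shares (exact permutation test) the smallest p was 0.245. None therefore passes. The share of Pfkfb3 among the 4 PFKFB enzymes ranged from 41.1% to 65.8% in vehicle and from 53.6% to 68.8% in TP-18 tumors, which overlap.

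**Figure D3:**
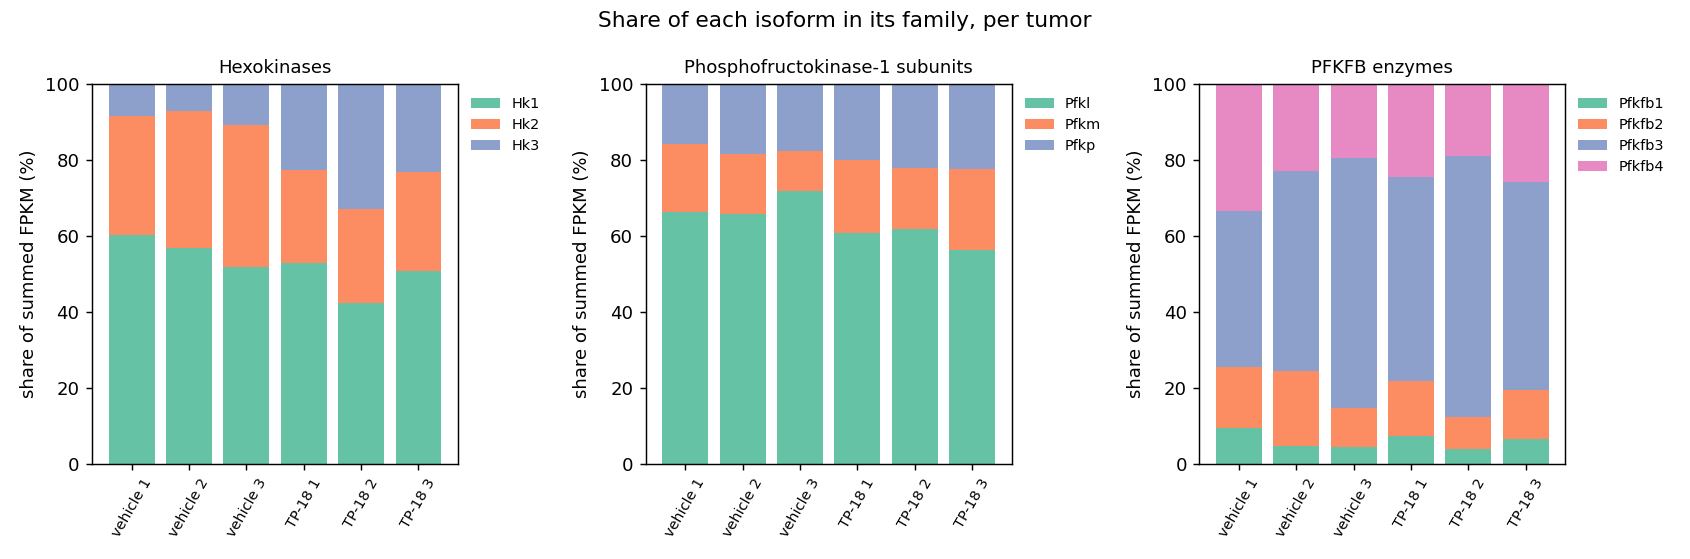
Stacked bars give, for each of the 6 tumors, the percentage of the summed FPKM of a family that each isoform holds, for hexokinases, phosphofructokinase-1 subunits and PFKFB enzymes. The Hk3 segment takes 7.29% to 10.9% in vehicle and 22.8% to 33.1% in TP-18 tumors.

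Aldolase, triosephosphate isomerase and glucose-6-phosphate isomerase act before the energy-yielding steps. Aldoa, the main aldolase, measured 1158, 1556 and 2082 CPM in vehicle and 1266, 1430 and 922 CPM in TP-18 tumors. Tpi1 measured 941, 1280 and 1818 CPM in vehicle and 1013, 1068 and 819 CPM in TP-18 tumors, and Gpi1 1009, 1422 and 1647 against 1086, 1040 and 818 CPM. In all 3 genes vehicle 3 was highest, TP-18 3 lowest, and vehicle 1 lay among the TP-18 tumors. Gpi1 had a log2 change of -0.47 ± 0.19, with an adjusted p of 0.147 in edgeR. Aldoc, the brain aldolase, was scarce, with 4.18, 3.49 and 4.37 CPM in vehicle and 7.29, 5.23 and 4.54 CPM in TP-18 tumors.

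The energy-yielding steps that follow held the most abundant members. Per length, Pgk1 (phosphoglycerate kinase) and Eno1 (enolase) had the highest mean levels of the members in both groups, 762 to 1627 and 846 to 1293 FPKM in vehicle and 800 to 1025 and 733 to 838 FPKM in TP-18 tumors. Eno1 measured 1697, 2102 and 2825 CPM in vehicle and 1602, 1549 and 1375 CPM in TP-18 tumors. It was 1 of 2 members with every TP-18 tumor below every vehicle tumor, the other being Adm, where 17.8% of all genes showed such a lower separation. The change of Eno1 was -0.55 ± 0.18 with an adjusted p of 0.0854, and DESeq2 called it (0.0112). Pgk1 measured 1391, 1993 and 3234 CPM in vehicle and 1783, 1728 and 1366 CPM in TP-18 tumors, a change of -0.44 ± 0.30. Pgam1, phosphoglycerate mutase, measured 372, 465 and 604 CPM in vehicle and 409, 416 and 364 CPM in TP-18 tumors.

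Gapdh, glyceraldehyde-3-phosphate dehydrogenase, is usually among the most abundant transcripts of a cell. Here it stood at 48.2, 69.8 and 89.2 FPKM in vehicle and 58.3, 59.5 and 47.6 FPKM in TP-18 tumors, far below Pgk1 and Eno1 of the same pathway. Mouse Gapdh has many near-identical pseudogenes, and how reads matching several places were counted is not given in the sources used here, so its level is uncertain. The same caution holds to a lesser degree for Aldoa, Tpi1, Pgk1, Pgam1, Eno1, Pkm and Ldha. From tumor to tumor Gapdh nonetheless followed the other members, with a factor of 2.02 from vehicle 1 to vehicle 3.

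Pyruvate kinase, lactate dehydrogenase and lactate export close the pathway. Pkm measured 2479, 3540 and 4458 CPM in vehicle and 2875, 3011 and 2377 CPM in TP-18 tumors (-0.34 ± 0.21). Ldha (chromosome 7, 46842274 to 46855627), which makes lactate, measured 1798, 2461 and 3508 CPM in vehicle and 2047, 2027 and 1674 CPM in TP-18 tumors, a change of -0.43 ± 0.23 with an adjusted p of 0.257. Slc16a3, the lactate exporter MCT4, had 55.3, 61.6 and 124 CPM in vehicle and 67.5, 80.8 and 60 CPM in TP-18 tumors. Its vehicle mean rests on vehicle 3: without it the change was 0.26 instead of -0.21. No glycolysis member passed edgeR's test, with 2 lower and 1 higher of 18 at an unadjusted p under 0.05 (29.9% of all genes in either direction), while DESeq2 called 2 lower and 1 higher and limma-voom none. The median change of the 18 was -0.33.

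**Figure D4:**
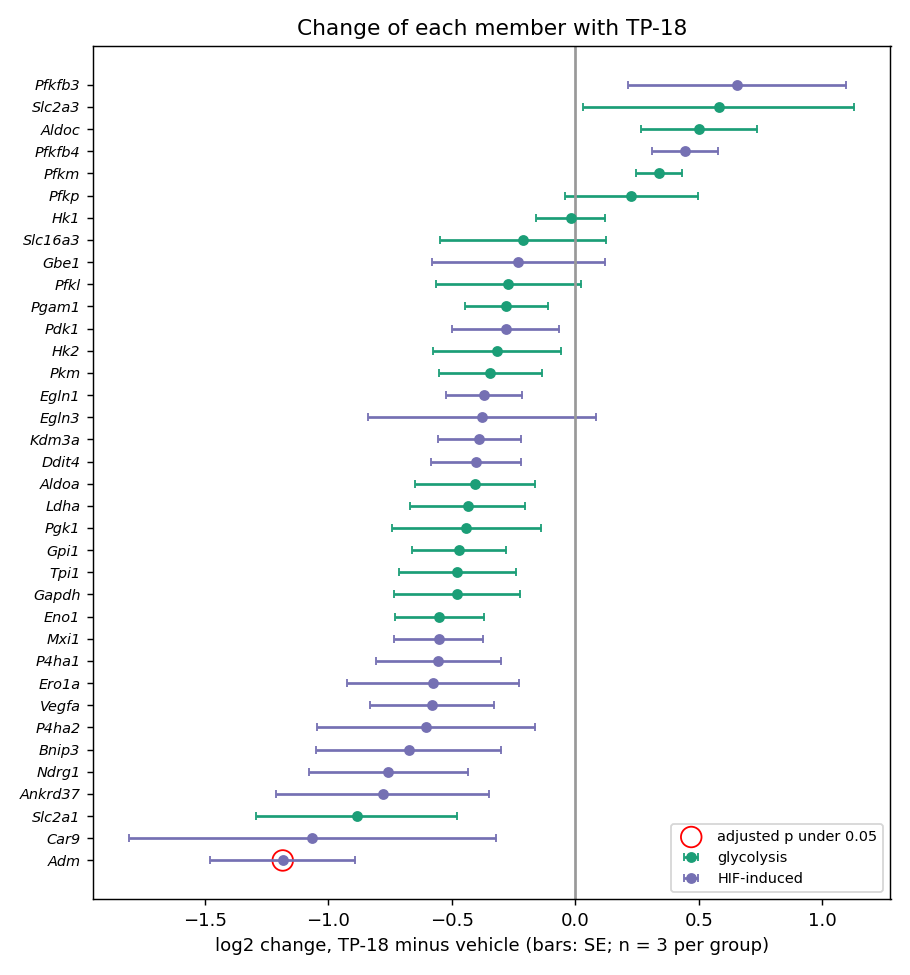
Points give the log2 change (TP-18 minus vehicle) of each member and bars its standard error, in green for glycolysis and violet for HIF-induced members, sorted by size. Adm, ringed, is the 1 member with an adjusted p under 0.05, and 6 members lie above 0.

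Among HIF-induced genes the secreted vascular signals come first. Adm (chromosome 7, 110627657 to 110629820) measured 5.92, 10.4 and 11.6 CPM in vehicle and 3.12, 5.06 and 4.13 CPM in TP-18 tumors, each TP-18 value below each vehicle value. It fell by 1.18 ± 0.29 on the log2 scale (adjusted p = 0.0382), from a mean of 9.33 ± 3.01 CPM to 4.10 ± 0.97 CPM (SD, n = 3 per group, edgeR). The call was lost without vehicle 2 (adjusted p = 0.12) or vehicle 3 (0.0824) and in limma-voom (0.0580). It was also lost when TP-18 1, 2 and 3 were left out in turn, with adjusted p-values of 0.112, 0.0625 and 0.122. Without vehicle 1 the adjusted p was 0.00923 and in DESeq2 0.00092. Vegfa, the main growth factor of blood vessels, measured 197, 247 and 359 CPM in vehicle and 156, 222 and 159 CPM in TP-18 tumors. The change of Vegfa was -0.58 ± 0.25 with an adjusted p of 0.183 in edgeR and 0.0377 in DESeq2. Endothelial markers, 12 genes with 9 positive and 3 negative changes, summed to 237, 248 and 107 CPM in vehicle and 159, 321 and 226 CPM in TP-18 tumors. None passed edgeR's test, beside 7.09% of all genes higher and 5.26% lower. None had an unadjusted p under 0.05 either, beside 29.9% of all genes. The sum was lowest in vehicle 3, where most members were highest, and the part of these cells in the members' levels was not tested.

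Car9 and Ndrg1 are widely used hypoxia markers. Car9, a cell-surface carbonic anhydrase that buffers acid, had 22.4, 29.6 and 128 CPM in vehicle and 30.6, 33.7 and 21.9 CPM in TP-18 tumors. Vehicle 3 was thus alone, and without it the log2 change went from -1.06 ± 0.74 to 0.16 ± 0.20. Ndrg1, a stress-induced cytosolic protein, measured 862, 1595 and 2074 CPM in vehicle and 881, 1053 and 748 CPM in TP-18 tumors (-0.76 ± 0.32, adjusted p = 0.178). Ankrd37, a small ankyrin-repeat protein, had 15.3, 24.1 and 50.1 CPM in vehicle and a narrow 17.9, 18.6 and 15.5 CPM in TP-18 tumors. In the latter 2 genes vehicle 2 and vehicle 3 lay above every TP-18 tumor and vehicle 1 did not.

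Bnip3, which marks mitochondria for removal, measured 202, 393 and 561 CPM in vehicle and 264, 262 and 199 CPM in TP-18 tumors (-0.67 ± 0.38, adjusted p = 0.291). Pdk1, a kinase that inhibits pyruvate dehydrogenase in mitochondria, had 90.7, 108 and 153 CPM in vehicle and 113, 97.4 and 79.4 CPM in TP-18 tumors. Both show the same layout, with vehicle 1 inside or at the edge of the TP-18 range. Ddit4, an inhibitor of mTORC1, and Mxi1, a MYC antagonist, had changes of -0.40 ± 0.18 and -0.55 ± 0.18. Mxi1 had an adjusted p of 0.0876 in edgeR and 0.0143 in DESeq2, with 97.5 CPM in vehicle 1 just under the 98 CPM of TP-18 1.

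The oxygen sensors and the enzymes that shape collagen and chromatin are further known HIF targets. Egln1, the main prolyl hydroxylase acting on HIF, measured 182, 209 and 269 CPM in vehicle and 178, 185 and 148 CPM in TP-18 tumors. Egln3, its strongly HIF-induced relative, was low, with 6.15, 11.9 and 19.1 CPM against 7.1, 14 and 7.51 CPM. P4ha1 and P4ha2, collagen prolyl hydroxylases, had changes of -0.55 ± 0.25 and -0.60 ± 0.44, and P4ha2 rested on vehicle 3 with 86.1 CPM against 28.4 to 40.8 CPM in the other 5 tumors. Kdm3a, a histone demethylase, had a change of -0.39 ± 0.17. Ero1a, which forms disulfide bonds in the endoplasmic reticulum, measured 402, 672 and 1069 CPM in vehicle and 424, 543 and 470 CPM in TP-18 tumors (-0.58 ± 0.35). Gbe1, the glycogen branching enzyme, had a change of -0.23 ± 0.35 that became 0.21 without vehicle 3.

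PFKFB enzymes set the level of fructose-2,6-bisphosphate, the activator of phosphofructokinase-1, and both members of this kind are among the 6 with a positive change, beside Slc2a3, Pfkm, Pfkp and Aldoc. Pfkfb3, which favours glycolysis, had 15.4, 24.2 and 42.5 CPM in vehicle and 33.2, 61.7 and 34.4 CPM in TP-18 tumors (0.66 ± 0.44, adjusted p = 0.378). Pfkfb4 had 9.65, 8.08 and 9.68 CPM in vehicle and 11.7, 13 and 12.5 CPM in TP-18 tumors, above every vehicle tumor, with a change of 0.44 ± 0.13 and an adjusted p of 0.0653. DESeq2 called Pfkfb4 (0.0447). Pfkfb4 was also the member with the smallest factor from vehicle 1 to vehicle 3, 1.00.

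The 2 subsets were compared through their counts, medians and mean levels per tumor. The HIF-induced subset had 1 call, 16 negative changes and a median of -0.55, and the glycolysis subset 0 calls, 14 negative changes and a median of -0.33, a difference of 0.22. The mean log2 CPM of the glycolysis members was 7.56, 8.03 and 8.50 in vehicle and 7.93, 8.00 and 7.66 in TP-18 tumors. For the HIF-induced members it was 5.85, 6.36 and 7 in vehicle and 5.98, 6.24 and 5.86 in TP-18 tumors. Both subsets thus ordered the vehicle tumors alike, and their group means differed by 0.17 and 0.38, less than the vehicle SDs of 0.47 and 0.57. The glycolysis mean minus the HIF-induced mean was 1.70, 1.67 and 1.5 in vehicle and 1.95, 1.76 and 1.80 in TP-18 tumors, with no overlap. By summed counts, which the most abundant genes dominate, the ratio of the subsets was 4.58, 3.96 and 3.83 in vehicle and 4.91, 4.31 and 4.43 in TP-18 tumors, where vehicle 1 falls within the TP-18 range.

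**Figure D5:**
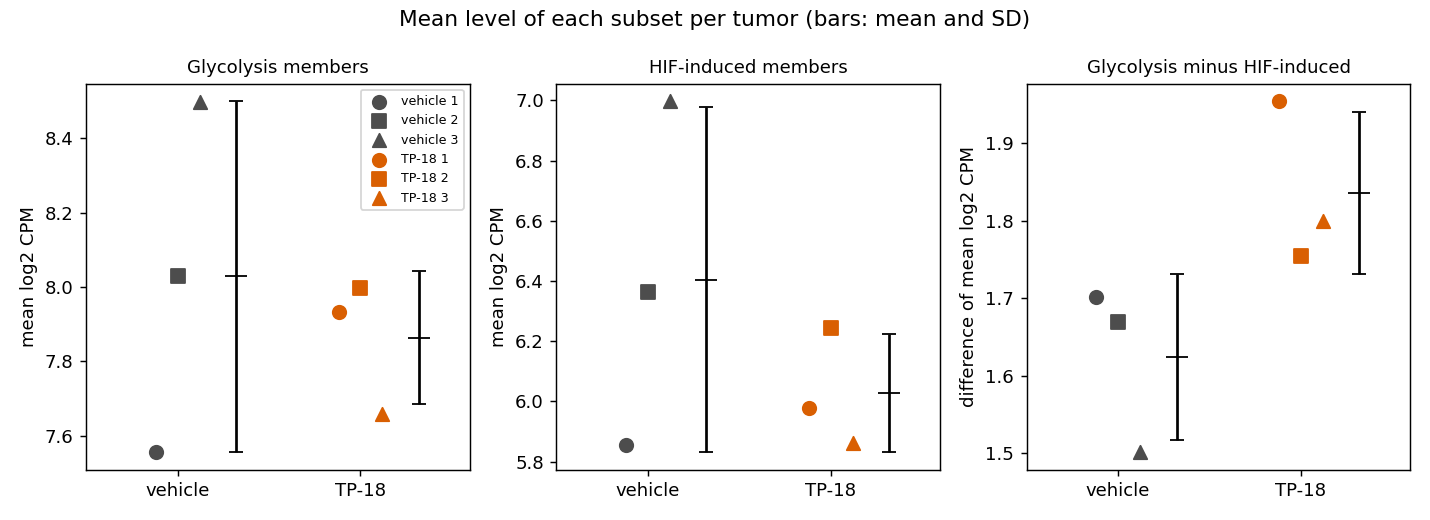
Points give the mean log2 CPM of the 18 glycolysis and the 18 HIF-induced members in each tumor, and the third panel their difference, with the mean and SD of each group beside them. The vehicle tumors span 7.56 to 8.50 and 5.85 to 7, and the TP-18 tumors lie inside those spans.

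Results for the members depended on which tumors were included. Without vehicle 1, 10 members were called lower: Slc2a1, Gpi1, Gapdh, Eno1, Pkm, Bnip3, Ndrg1, Adm, Kdm3a and Mxi1, where 6.99% of all genes were called lower and 8.31% higher. The glycolysis and HIF-induced medians were then -0.52 and -0.72. Slc2a1 had a change of -1.19 ± 0.21 (adjusted p = 0.0215) and Ndrg1 of -1.02 ± 0.17 (adjusted p = 0.0154) in that fit. Without vehicle 3 no member was called by edgeR, with 3 lower and 5 higher at an unadjusted p under 0.05, beside 2.98% of all genes called lower and 6.40% higher, and the medians were -0.06 and -0.17. No member was called without vehicle 2 or without any 1 TP-18 tumor either, and calls over all genes also dropped in these fits. Without vehicle 2 there were 112 genes lower and 411 higher, where the fit on all tumors gave 747 and 1006. Without TP-18 1, 2 and 3 there were 155, 215 and 111 lower and 591, 508 and 388 higher.

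Red blood cell, neutrophil and fibroblast markers were, like most members, lowest in vehicle 1 and highest in vehicle 3 among vehicle tumors, and T cell markers were not. Red blood cell markers, with 9 of 12 listed genes matched, 5 tested and 4 called lower, summed to 66.4, 183 and 395 CPM in vehicle 1, 2 and 3 and to 15 to 33.9 CPM in TP-18 tumors. Neutrophil markers, 12 genes of which 8 were tested and none passed (edgeR, none at an unadjusted p under 0.05 either), summed to 47.8, 80.3 and 355 CPM in vehicle and 69.8 to 151 CPM in TP-18 tumors. Fibroblast markers, 10 tested genes with 0 called by edgeR, summed to 2391, 2525 and 6567 CPM in vehicle and 2751 to 4348 CPM in TP-18 tumors. T cell markers, all 12 called higher, summed to 35.3, 17.9 and 18.4 CPM in vehicle 1, 2 and 3 and to 97.6 to 108 CPM in TP-18 tumors. Across all tested genes 7.09% were called higher and 5.26% lower by edgeR, and 29.9% had an unadjusted p under 0.05. The part of these cell types in the members' levels was not tested.

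Of 10 tested genes of the HIF machinery 1 passed the test, beside 12.4% of all tested genes. Hif1a, the oxygen-regulated subunit, measured 175, 209 and 248 CPM in vehicle and 191, 264 and 223 CPM in TP-18 tumors (0.10 ± 0.16, adjusted p = 0.709), and it had the members' order among the vehicle tumors but not their position for TP-18. Its activity is set mainly by protein stability. Epas1, which encodes HIF-2-alpha and is rich in endothelial cells and macrophages, had 15.6, 13 and 9.93 CPM in vehicle and 17.1, 42.3 and 28.3 CPM in TP-18 tumors, with no overlap and an adjusted p of 0.0757. Arnt, Vhl and Hif1an had changes of -0.16, -0.04 and 0.08. Cited2, which competes with HIF for transcriptional coactivators, was the gene that passed and fell by 0.75 ± 0.11, from 125, 163 and 157 to 92.7, 86.8 and 85.7 CPM (adjusted p = 0.0071).

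Other known HIF targets, 38 tested of 40 listed, had 0 higher and 2 lower calls and a median change of -0.34. Lower calls made up 5.26% of all genes. At an unadjusted p under 0.05 (edgeR) 1 of the 38 was higher and 7 lower, beside 29.9% of all genes in either direction. Pgf, placental growth factor, fell by 1.53 ± 0.25 (10.8, 17.2 and 16.1 CPM in vehicle, 5.4, 6.24 and 3.64 CPM in TP-18 tumors, adjusted p = 0.0113), and Bhlhe41, a transcriptional repressor, by 0.66 ± 0.16 (adjusted p = 0.0376). Vehicle 3 was the highest vehicle tumor in 27 of the 38 and vehicle 1 the lowest in 31. Of 20 tested further genes of glycolysis and its branches, 1 rose and none fell by edgeR, with 4 higher and 1 lower at an unadjusted p under 0.05 (29.9% of all genes in either direction). Ldhb, the lactate dehydrogenase subunit of oxidative tissues, rose from 0.882, 0.398 and 0.250 CPM to 2.23, 3.15 and 3.15 CPM (log2 change 2.46 ± 0.47, adjusted p = 0.0177), while Ldha made up at least 99.2% of the pair's FPKM in every tumor.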

How the data were processed

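RNA sequencing of 6 tumors was used as 2 deposited tables. The count table holds the authors' whole-number counts per gene, without normalization. The FPKM table was deposited by the authors, and each of 15884 genes with counts in every tumor fits 1 gene length over the 6 libraries (tolerance 0.001). fastp, HISAT2, HTSeq and GRCm38 are named in the submitters' processing notes. Not given in the sources used here were versions, strandedness and the treatment of reads with several matches. Coordinates come from RefSeq GRCm38.p6 by Entrez ID.

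Genes were kept by filterByExpr (minimum count 10, minimum total 15), scaled by TMM and tested in R 4.3.3 with edgeR 4.0.16 (robust quasi-likelihood F test, group as the only term, two-sided). SEs were derived from F. CPM are TMM-scaled, and log2 CPM used a prior count of 2. FPKM serve for comparisons between genes. The procedure was tested on simulated counts. Members and lists were chosen with earlier results of these data known, so no p is given over a list. All 36 members are named, and of the other lists their counts, up to 4 genes by smallest p, and Hif1a, Epas1, Arnt, Vhl and Hif1an. Txnip is named outside that rule, since its p is not among the 4 smallest of its list. Of marker lists up to 3 genes are named, and Krt20, Epcam, Lyz2 and Cd163 were picked after their values were seen. Alternatives used limma 3.58.1 and DESeq2 1.42.0.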

Additional observations from a re-analysis of the deposited data

How the results depend on the processing

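Settings changed one at a time were RLE and upper-quartile scaling, TMM factors computed without the members and the muscle and red blood cell markers, 2 other filters, non-robust moderation, the replicate block, DESeq2, limma-voom, limma on log2 FPKM, an adjusted p under 0.10, and leaving out each tumor. Over all genes 1006 were higher and 747 lower. Upper-quartile scaling and a filter of 1 CPM in 3 libraries each called 1 member higher, a glycolysis gene (Pfkm). DESeq2 called 1202 genes lower, and of the members 2 higher and 5 lower (glycolysis 1 and 2, HIF-induced 1 and 3). In limma-voom 0 members were lower, 0 of them HIF-induced. On log2(FPKM + 1) with a filter 1244 genes were higher and 232 lower, with a pseudocount of 0.1 there were 1223 and 230, and without a filter 751 and 95. The authors' FPKM use library totals and moved the median of all genes to 0.10 and 0.12 with the 2 pseudocounts. With either pseudocount and a filter 2 members were higher (1 glycolysis, 1 HIF-induced) and 0 lower, and without a filter 1 higher (glycolysis) and 0 lower. At an adjusted p under 0.10, 1609 genes were higher and 1413 lower, and of the members 2 higher and 3 lower (glycolysis 1 and 1, HIF-induced 1 and 2).

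Leaving out 1 tumor gave 388 to 1216 genes higher and 111 to 1023 lower, 0 to 10 members lower, and 0 to 5 lower in either subset, with 0 members higher in each. Subset medians ranged from -0.52 to -0.06 (glycolysis) and -0.72 to -0.17 (HIF-induced), and their difference from 0.12 to 0.26. Of the 36 members 29 kept their sign in every setting run. Hk1 had changes of 0.0047 with upper-quartile scaling and 0.13 to 0.14 on log2 FPKM (0.135 and 0.139), Slc16a3 0.015 and 0.019 and Gbe1 0.0060 and 0.011 on log2 FPKM. With 1 tumor left out the ranges were -0.13 to 0.14 for Hk1, -0.45 to 0.0906 for Pfkl, -0.41 to 0.26 for Slc16a3, -0.76 to 0.0901 for Egln3, -1.44 to 0.16 for Car9, -0.87 to 0.027 for P4ha2 and -0.49 to 0.21 for Gbe1. Each such fit holds fewer samples, and otherwise the cause was not tested.

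The labels do not pair tumors by number. Deviations of same-numbered tumors correlated at 0.24, -0.08 and -0.04 across genes, and 1 of 3 TP-18 tumors correlated best with its own number. With the replicate block 547 genes were higher and 231 lower, and the member calls stayed at 1 lower and 0 higher. The scarcest members, Slc2a3, Adm and Aldoc, rest on 87 to 507 counts per tumor, and the effect of depth on the calls was not tested.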

Other observations

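Genes of mitochondrial respiration, which competes with lactate production for pyruvate, did not share the spread of the glycolysis and HIF-induced genes among vehicle tumors. Of 28 respiratory chain and citric acid cycle genes, none differed by 1.5-fold or more between vehicle 1 and vehicle 3, and the median factor was 0.98. In the comparison of groups 1 of the 28 passed edgeR's test, beside 5.26% of all genes called lower and 7.09% higher. This was Mdh2, mitochondrial malate dehydrogenase, which fell by 0.27 ± 0.07 (adjusted p = 0.0404, edgeR). Of the 28 changes 24 were negative, with a median of -0.13. Groups did not overlap, with TP-18 lower, in 10 of the 28, and in 17.8% of all tested genes. Of 13 genes of the pyruvate dehydrogenase complex and its regulators none passed (edgeR). At an unadjusted p under 0.05 (edgeR) 5 were lower and 1 higher, beside 29.9% of all genes in either direction. In the pentose phosphate pathway Pgls, the lactonase of its second step, fell by 0.28 ± 0.07 (adjusted p = 0.0390, edgeR). It was the 1 call among 7 genes, beside 5.26% of all genes called lower and 7.09% higher.

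Of 8 listed sensors of glucose and genes of the MYC network, 7 were tested. By edgeR 1 was called higher and 1 lower, beside 7.09% and 5.26% of all genes. Myc, a transcription factor that also drives glycolytic genes, fell by 0.68 ± 0.13 (adjusted p = 0.0163, edgeR). It measured 267, 220 and 190 CPM in vehicle and 136, 134 and 152 CPM in TP-18 tumors. The vehicle tumor with the lowest Myc was the one with the highest level of all 36 glycolysis and hypoxia response genes within its group. Between the groups, Myc and the median change of the 36 (-0.40) were both lower in TP-18 tumors. The part of Myc in the members' levels was not tested. Arrdc4, an arrestin-like gene induced by glucose, rose by 1.15 ± 0.26 (adjusted p = 0.0307). Txnip, its better-known relative that limits glucose uptake, measured 621, 453 and 262 CPM in vehicle and 632, 494 and 569 CPM in TP-18 tumors, lowest in vehicle 3 (adjusted p = 0.496).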
